A study of Mus musculus with 117 samples.

Results

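The cytochrome P450 genes of families 1 to 4 were followed across 117 mouse arrays. Members were chosen by symbol alone: every gene named Cyp, a family number from 1 to 4, a subfamily letter and a gene number, measured by a probe set annotated to a single gene. Where several probe sets measured a gene, the one with the highest mean over the arrays was used. This gave 50 of the 17097 genes on the array, of which 3 belonged to family 1, 29 to family 2, 6 to family 3 and 12 to family 4. The largest subfamilies were Cyp2c with 8 genes and Cyp2d, Cyp3a and Cyp4f with 6 each.

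The study compared tumours with normal cells that had been sorted for Prom1, the gene of prominin-1, a membrane glycoprotein by which stem cells are recognised in several organs. The tumours were 13 hepatocellular carcinomas, 14 bronchial papillary adenomas, 10 prostatic adenocarcinomas, 11 gastric adenocarcinomas, 9 uterine adenocarcinomas, 3 B-cell lymphomas and 6 skin tumours labelled squamous cell carcinoma, each a piece of frozen tissue. The normal cells had been dissociated and passed over anti-Prom1 magnetic beads. Prom1-positive and Prom1-negative cells gave 4 and 7 samples in liver, 3 and 7 in lung, 3 and 5 in prostate, 3 and 4 in stomach, 4 and 3 in uterus and 3 and 5 in intestine. All samples were labelled C57BL/6 and untreated. The design text names Prom1 conditional mutant mice, but no label gives the genotype, the sex or the age behind a sample, nor whether samples within a group are different animals, so the p-values measure only the spread between these samples. A tumour piece holds every cell type of the tumour and was never dissociated. Tumour state, cell makeup and handling cannot be told apart in the tumour comparisons, nor can fewer cells of a type from less RNA per cell.

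Cytochrome P450 enzymes are haem proteins that insert an oxygen atom into their substrates, with electrons from P450 reductase. Families 1, 2 and 3 handle most drugs and foreign chemicals. They are switched on by receptors such as Ahr for family 1 and Nr1i3 (CAR) and Nr1i2 (PXR) for Cyp2b and Cyp3a. Family 4 enzymes mainly oxidise the ends of fatty acids and eicosanoids. Hepatocytes are the chief site of these enzymes, with the intestine and the club cells of the airway also rich in some of them. In mouse liver several members differ between the sexes and others are made mainly by the hepatocytes around the central vein.

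Values are log2 probe set signals, so that a difference of 1 is a 2-fold change of signal. Signals of different genes come from different probes and were not ranked against each other. A level is called above the array median when it exceeds the median of all probe sets of that array, which lay between 3.63 and 4.01. Differences were tested with limma, and a gene is called when its p-value, adjusted over all genes tested by the method of Benjamini and Hochberg, is under 0.05. In 6 arrays the upper quartile of the signal was under 6: samples 2 and 3 of liver Prom1-positive, sample 4 of lung Prom1-positive, samples 2 and 3 of stomach Prom1-positive and, in stomach, 1 Prom1-negative sample (2 share the number 2). The lists of marker genes were high where the labels place them, with some arrays also high for another organ. The mean signal of 16 hepatocyte genes was 10.32 to 11.62 in hepatocellular carcinomas and 9.66 to 11.86 in sorted liver cells. The mean of 8 enterocyte genes was 11.46 to 12.35 in sorted intestinal cells, and the B-cell list reached 7.46 to 7.78 in the lymphomas. Signals of another organ or cell type stood out in 6 arrays. The alveolar type 2 list was 9.07 and 8.25 in hepatocellular carcinomas 1 and 8, against 4.25 to 5.52 in the other 11, and the enterocyte list was 8.38 in gastric adenocarcinoma 11, against 3.01 to 4.80 in the other 10. The hepatocyte list was 9.55 in uterine adenocarcinoma 6, the stomach gland list was 10.42 in Prom1-negative intestine sample 2 and the club cell list was 11.55 in bronchial papillary adenoma 1. Where calls of tumours against sorted cells changed without these arrays, the members are named. Prom1 itself was higher in Prom1-positive than in Prom1-negative cells by 1.76 in prostate, 1.65 in stomach and 1.46 in uterus (limma, adjusted p = 0.00244, 0.0189 and 0.0173). The Prom1 signal differed by 0.01 in lung, 0.53 in intestine and 0.23 in liver (adjusted p = 0.999, 1 and 0.731). In liver the Prom1 signal lay between 2.56 and 4.14 in positive cells and between 2.53 and 3.41 in negative cells, near or below the array median, so the RNA does not separate the liver sort.

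The members split by organ. In most arrays of hepatocellular carcinoma 39 of the 50 genes were above the array median, and so were 33 in liver Prom1-positive and 37 in liver Prom1-negative cells. Intestine followed with 20 in Prom1-positive and 21 in Prom1-negative cells. Every other group had between 7, in B-cell lymphoma, and 15, in stomach Prom1-positive cells. Cyp2d34 passed the array median in 0 of 117 arrays, Cyp4a31 in 1, Cyp2b13 and Cyp4x1 in 2 each, Cyp2u1 in 4, Cyp2b19 in 5, Cyp3a16 in 6, Cyp2b9 in 8, Cyp2j13 in 9, Cyp2g1 in 10 and Cyp3a44 in 11. The levels of these 11 genes were thus mostly near background.

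**Figure D1:**
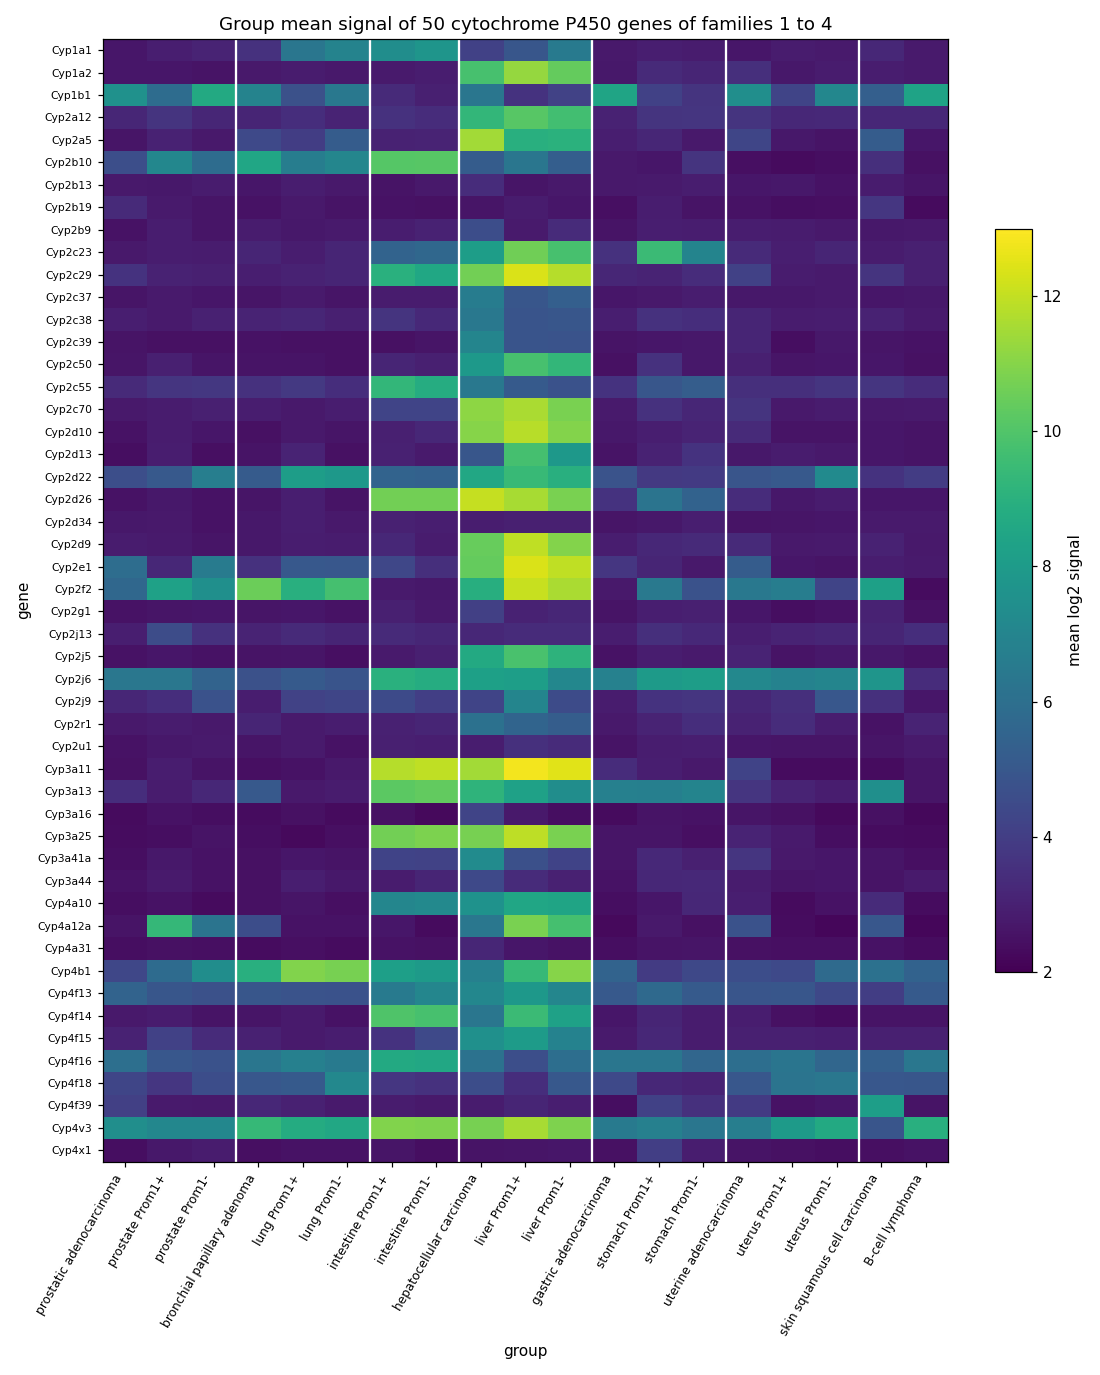
Mean log2 signal (colour) of the 50 genes (rows, by symbol) in the 7 tumour types and 12 groups of sorted cells (columns; white lines separate organs). The bright columns are hepatocellular carcinoma and both liver sorts, where 39, 33 and 37 genes were above the array median. Cyp2b10, Cyp3a11, Cyp3a13 and Cyp3a25 are also high in the intestine, although Cyp3a11 and Cyp3a25 are higher in liver.

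Among normal tissues the liver had the highest mean for 34 members, and for 22 of these it exceeded the next tissue by at least 1. Cyp2d10, of the Cyp2d drug-metabolising cluster, averaged 11.39 in liver and 3.10 in intestine, the next tissue. Cyp2d9, a steroid hydroxylase of male mouse liver, averaged 11.47 in liver and 3.27 in stomach. Cyp1a2, which oxidises caffeine and aromatic amines, averaged 10.83 in liver and 3.24 in stomach. Each of these genes was at background in the tissue that ranked second, so in these arrays they separated liver from the rest almost as on and off. Cyp2e1, which oxidises ethanol and other small solvents, averaged 12.14 in liver and 4.99 in lung. The contrast of liver with the mean of the other 5 tissues called 37 of 42 members tested, 35 higher and 2 lower, where 58.4% of all genes tested were called (21.3% higher and 37.1% lower). A gene was tested when above the array median in at least 3 sorted samples of any group. Members such as Cyp2j5 and Cyp1a2, above it in 0 sorted samples of the other tissues, passed through liver samples only. The count of higher members was thus partly set by the filter. The median difference was 3.28 over the members and -0.17 over all genes tested. The 2 that were lower in liver were Cyp1b1 (-1.22) and Cyp4f16 (-1.12). Among those higher, Cyp1a1, Cyp2j6 and Cyp3a44 lost their calls without some single samples.

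The intestine had the highest mean for 8 members, 4 of them by at least 1. Cyp2c55, which in mice turns arachidonic acid into hydroxyeicosatetraenoic acids, averaged 9.06 in intestine and 5.10 in stomach. Its signal was 9.62, 8.27 and 9.98 in Prom1-positive and 7.08, 8.28, 8.28, 10.15 and 10.34 in Prom1-negative intestinal cells, so both sorts overlapped fully. Cyp2b10, the classical CAR target, averaged 10.14 in intestine and 6.84 in lung. Cyp3a13 averaged 10.30 in intestine and 7.84 in liver, and Cyp4f16 averaged 8.63 in intestine and 6.64 in lung. The intestine also carried several genes that peaked in liver: Cyp3a11, the main PXR target and counterpart of human CYP3A4, averaged 11.85 in intestine and 12.65 in liver. Cyp3a25 stood at 10.76 in intestine and 11.35 in liver, and Cyp2d26 at 10.65 in intestine and 11.18 in liver. Their liver excess was thus less than 1, unlike the excess of Cyp2d9 or Cyp1a2.

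Prostate was highest for Cyp1b1, which activates polycyclic hydrocarbons and hydroxylates estradiol, with 7.28 against 5.67 in uterus. Lung was highest for Cyp4b1, which activates ipomeanol and other protoxicants in the airway, with 10.82 against 10.19 in liver. Cyp4f18, which in mice oxidises leukotriene B4 in neutrophils, was highest in uterus with 6.29, against 6.12 in lung. The neighbours in these last 2 orders differed by less than 1. Over the 6 normal tissues every one of the 42 members tested was called by the moderated F test, where 90.1% of all genes were.

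Among tumours the hepatocellular carcinoma had the highest mean for 41 members, 33 of them by at least 1. The leading excesses were those of Cyp2d26, with 12.01 in hepatocellular carcinoma and 3.62 in gastric adenocarcinoma, of Cyp2d10 with an excess of 7.68 and of Cyp3a25 with an excess of 7.64. Bronchial papillary adenoma was highest for Cyp2b10 (8.53, against 5.19 in hepatocellular carcinoma), Cyp4b1 (8.93, with 6.77 in hepatocellular carcinoma) and Cyp2f2 (10.52, with 8.88 in hepatocellular carcinoma). Cyp2f2 is the naphthalene-activating enzyme of mouse club cells. Cyp4f39, an omega-hydroxylase needed for the skin's acylceramide barrier, averaged 8.16 in squamous cell carcinoma of the skin and 4.07 in prostatic adenocarcinoma. Its lowest skin tumour, at 5.62, was sample 3, and the other 5 lay between 7.80 and 9.68.

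The contrast of hepatocellular carcinoma with the mean of the other 6 tumour types called 40 of 45 members tested, where 66.3% of all genes were called. Of these 39 were higher, against 25% of all genes tested, and 1 was lower, against 41.3% of all genes. Here too some members passed the filter only through the carcinomas of the liver. Cyp2c37 was above the array median in 11 of those and in 0 other tumours. The count of higher members was thus partly set by the filter. Cyp2d26 was higher by 9.10 with a standard error of 0.31 (limma, adjusted p = 1.34e-35), and Cyp3a11 by 8.57 with a standard error of 0.55. The gene that was lower was Cyp4f39 (-1.24). Cyp1b1 was not called (-1.02, adjusted p = 0.0546), nor were Cyp2b19, Cyp2j13, Cyp4f16 and Cyp4f18. The median difference was 3.42 over the members and -0.19 over all genes tested. All members called across the 7 types numbered 44 of 45, with Cyp4f18 the exception, where 95.1% of all genes were called.

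Prom1-positive and Prom1-negative cells of the same tissue differed in few members. Of 42 members tested, 4 were called in prostate, 1 in lung, 0 in intestine, 5 in liver, 0 in stomach and 3 in uterus. The shares of all genes called by limma were 9.19% in prostate, 1.51% in lung, 0.199% in intestine, 20.7% in liver, 3.17% in stomach and 10.9% in uterus. The members' own shares were 9.52%, 2.38%, 0%, 11.9%, 0% and 7.14% in the same order. The same 42 members were tested in every tissue, although many of them lay below the array median outside liver. In intestine 0 members and in stomach 3 had an unadjusted p under 0.05. Because the spread of some members differs between organs, each contrast was also fitted on that organ's arrays alone, a choice made after the data were seen, and its adjusted p is given as "alone". That fit called 4 of 16 members tested in prostate (20.4% of all genes), 0 of 14 in lung (0.507%), 0 of 23 in intestine (0.0184%), 3 of 39 in liver (19.1%), 0 of 14 in stomach (0%) and 6 of 10 in uterus (28.8%).

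In the prostate sort, Cyp4a12a, an omega-hydroxylase of arachidonic acid that is induced by androgen, was higher in Prom1-positive cells. Its signal was 9.09, 9.09 and 9.84 in Prom1-positive cells, against 4.37, 6.64, 6.51, 7.18 and 6.37 in Prom1-negative cells. The groups did not overlap, and the difference of 3.13 (SE 0.56) passed limma's test (adjusted p = 6.71e-05, alone 0.00876). Cyp2e1 ran the other way, with 3.49, 3.50 and 2.67 in Prom1-positive cells, against 3.87, 6.48, 7.13, 7.69 and 7.61 in Prom1-negative cells. It fell by 3.34 (SE 0.57, limma, adjusted p = 3.02e-05, alone 0.0244), again without overlap, though Prom1-negative sample 1 came close to the positive cells. Cyp1b1 had 7.67, 5.82 and 4.16 in Prom1-positive cells, against 7.79, 8.82, 8.86, 9.02 and 8.95 in Prom1-negative cells, a fall by 2.81 (SE 0.66, limma, adjusted p = 0.00296, alone 0.0238). The Cyp1b1 groups did not overlap, but without Prom1-positive sample 3 the difference was -1.95 (adjusted p = 0.0992). Cyp2j13, near background in most tissues, was higher by 0.97 (limma, adjusted p = 0.012, alone 0.127) and lost its call without Prom1-positive sample 2 or 3 (0.108 and 0.281). Cyp4f15 was 3.97, 4.17 and 4.19 in Prom1-positive cells, against 3.56, 3.22, 2.89, 3.78 and 3.23 in Prom1-negative cells, without overlap, and was called with prostate arrays alone (0.78, limma, adjusted p = 0.661, alone 0.0369). Beside these members, 7 of 10 fibroblast genes, 4 of 10 endothelial genes and 7 of 9 T and NK cell genes fell in the prostate positive cells, and 3 of 9 prostate epithelial genes rose. The mean signal of the fibroblast list was 5.22 to 7.31 in positive and 7.76 to 9.16 in negative cells. The part of this makeup in the member differences was not tested.

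In the uterus sort, Cyp1b1 was 3.18, 4.28, 5.17 and 4.34 in Prom1-positive cells, against 7.17, 7.73 and 6.39 in Prom1-negative cells. It fell by 2.86 (SE 0.69, limma, adjusted p = 0.00353, alone 0.00232), with a gap between the groups. Cyp2d22, a Cyp2d gene that is also active outside the liver, had 4.22, 4.85, 5.85 and 5.43 in Prom1-positive cells, against 7.13, 7.79 and 6.91 in Prom1-negative cells. It fell by 2.19 (SE 0.60, limma, adjusted p = 0.0108, alone 0.00338); the adjusted p was 0.0578 without Prom1-positive sample 1 and 0.0833 without Prom1-negative sample 2. Cyp2f2 was higher in Prom1-positive cells, with 7.73, 6.82, 5.48 and 6.67 against 4.47, 4.29 and 4.06 in Prom1-negative cells. Its difference was 2.40 (SE 0.79, limma, adjusted p = 0.0401, alone 0.00431), and none of the 7 samples overlapped between groups. In the fit across tissues the Cyp2f2 call was lost in turn without 6 of the 7 single uterus samples. With uterus arrays alone, Cyp2j9 (-1.49), Cyp4b1 (-1.36) and Cyp4f16 (0.64) joined the list (limma, alone 0.0053, 0.000675 and 0.0255). In the same positive cells 7 of 10 macrophage genes rose and 6 of 10 fibroblast genes fell. The macrophage list averaged 9.51 to 10.05 in positive and 6.78 to 7.22 in negative cells, and its part in the member differences was not tested.

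In the lung sort the only member called was Cyp4f18. Its signal was 4.27, 5.64 and 5.37 in Prom1-positive cells, against a range of 6.04 to 8.92 with a median of 7.17 in the 7 Prom1-negative samples. It fell by 2.04 (SE 0.49, limma, adjusted p = 0.0169, alone 0.157) with no overlap, and the call was lost without Prom1-positive sample 1 or 4 (0.0937 and 0.054). Of the lung lists, 7 of 9 T and NK cell genes and 3 of 7 neutrophil genes fell in the positive cells too, with the T and NK list at 4.22 to 5.37 in positive and 6.35 to 8.91 in negative cells. The part of these blood cells in the Cyp4f18 difference was not tested.

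In the liver sort 5 members were called, 2 higher, against 4.2% of all genes, and 3 lower, against 16.5% of all genes. Cyp2j9, of the arachidonate-oxidising Cyp2j subfamily, had 3.85, 8.47, 7.99 and 7.77 in Prom1-positive cells, against a range of 2.73 to 5.54 with a median of 4.84 in Prom1-negative cells. Samples 3, 4 and 5 lay above every negative sample, while sample 2 lay among them, and the difference was 2.53 (SE 0.56, limma, adjusted p = 0.000939, alone 0.0484). The other that was higher, Cyp2d13, is annotated as a transcribed pseudogene. Cyp2d13 had 6.61, 11.19, 10.54 and 10.68 in Prom1-positive cells, against 4.42 to 9.43 with a median of 8.19 in Prom1-negative cells (difference 1.89, limma, adjusted p = 0.0409, alone 0.211). Cyp4b1 had 11.87, 8.57, 7.55 and 9.46 in Prom1-positive cells, against 10.60 to 11.64 with a median of 10.97 in Prom1-negative cells. Here sample 2 was above all negative samples and the other 3 below all of them (difference -1.65, limma, adjusted p = 0.0411, alone 0.0749). Cyp4f18 had 3.97, 3.51, 2.58 and 3.67, against 4.05 to 6.23 in Prom1-negative cells (difference -1.61, adjusted p = 0.00759, alone 0.0234), and Cyp4f16 differed by -1.32 (limma, adjusted p = 0.0234, alone 0.0485). In the fit across tissues the adjusted p without Prom1-positive sample 4 was 0.295 for Cyp4b1, 0.0642 for Cyp4f18 and 0.0915 for Cyp4f16, and without sample 5 it was 0.221 for Cyp4f16. The Cyp2d13 call was lost without Prom1-positive sample 3, 4 or 5 or Prom1-negative sample 1 or 2 (0.0867 to 0.242), and that of Cyp4b1 also without Prom1-positive sample 3 or 5 or Prom1-negative sample 1, 2, 3 or 7 (0.0501 to 0.185).

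The number of members called in the liver sort depended on which samples were in the fit and on blocks. Without Prom1-positive sample 2, 17 of 42 members were called, 13 higher and 4 lower. In that fit 31.7% of all genes were called in either direction, and no share by direction is given. The 13 that were then higher included Cyp2j9 (3.59, limma, adjusted p = 2.04e-07), Cyp2d13 (2.94), Cyp4f15 (2.66) and Cyp3a25 (1.77), and Cyp4b1 was among the 4 that were lower (-2.49). Without Prom1-positive sample 4, 1 member was called. The fit with blocks of neighbouring sample codes held only the 3 liver pairs with such codes. It left out Prom1-positive sample 2 and the Prom1-negative samples without a neighbour. It called 16 members, with the 5 called in the full set among them, where 35.9% of all genes were called. The effect of these blocks cannot be told apart from that of the samples left out. A replicate block by title number called 10, where 11.6% of all genes were, and of the 5 only Cyp2j9, with adjusted p of 0.0621 for Cyp2d13, 0.064 for Cyp4b1, 0.101 for Cyp4f16 and 0.1 for Cyp4f18. In the positive cells 9 of 9 T and NK cell genes, 8 of 10 macrophage genes and 7 of 10 endothelial genes fell, whereas 0 of 16 hepatocyte genes were called. The T and NK list averaged 3.62 to 3.86 in positive and 6.71 to 8.65 in negative cells, and the macrophage list 7.32 to 10.32 in positive and 10.24 to 11.21 in negative cells. The share of other cells and the level per hepatocyte cannot be told apart here.

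Averaged over the 6 tissues with equal weight, Cyp1b1 (-1.18, SE 0.27, adjusted p = 0.00165), Cyp4a12a (0.81, SE 0.22, adjusted p = 0.0109) and Cyp4f18 (-0.72, SE 0.21, adjusted p = 0.0167) were called by limma, where 13.6% of all genes were. For 6 members the difference itself varied between tissues, where 21.2% of all genes did: Cyp2e1, Cyp2j9, Cyp1b1, Cyp4a12a, Cyp2d22 and Cyp4f18. The Cyp4a12a variation lost its call without Prom1-positive prostate sample 3 (limma, adjusted p = 0.073), and those of Cyp2d22 and Cyp4f18 were lost without any of several single samples (up to 0.0921 and 0.104). For Cyp4a12a the prostate difference alone was 3.13, and for Cyp1b1 those in prostate and uterus were -2.81 and -2.86.

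**Figure D2:**
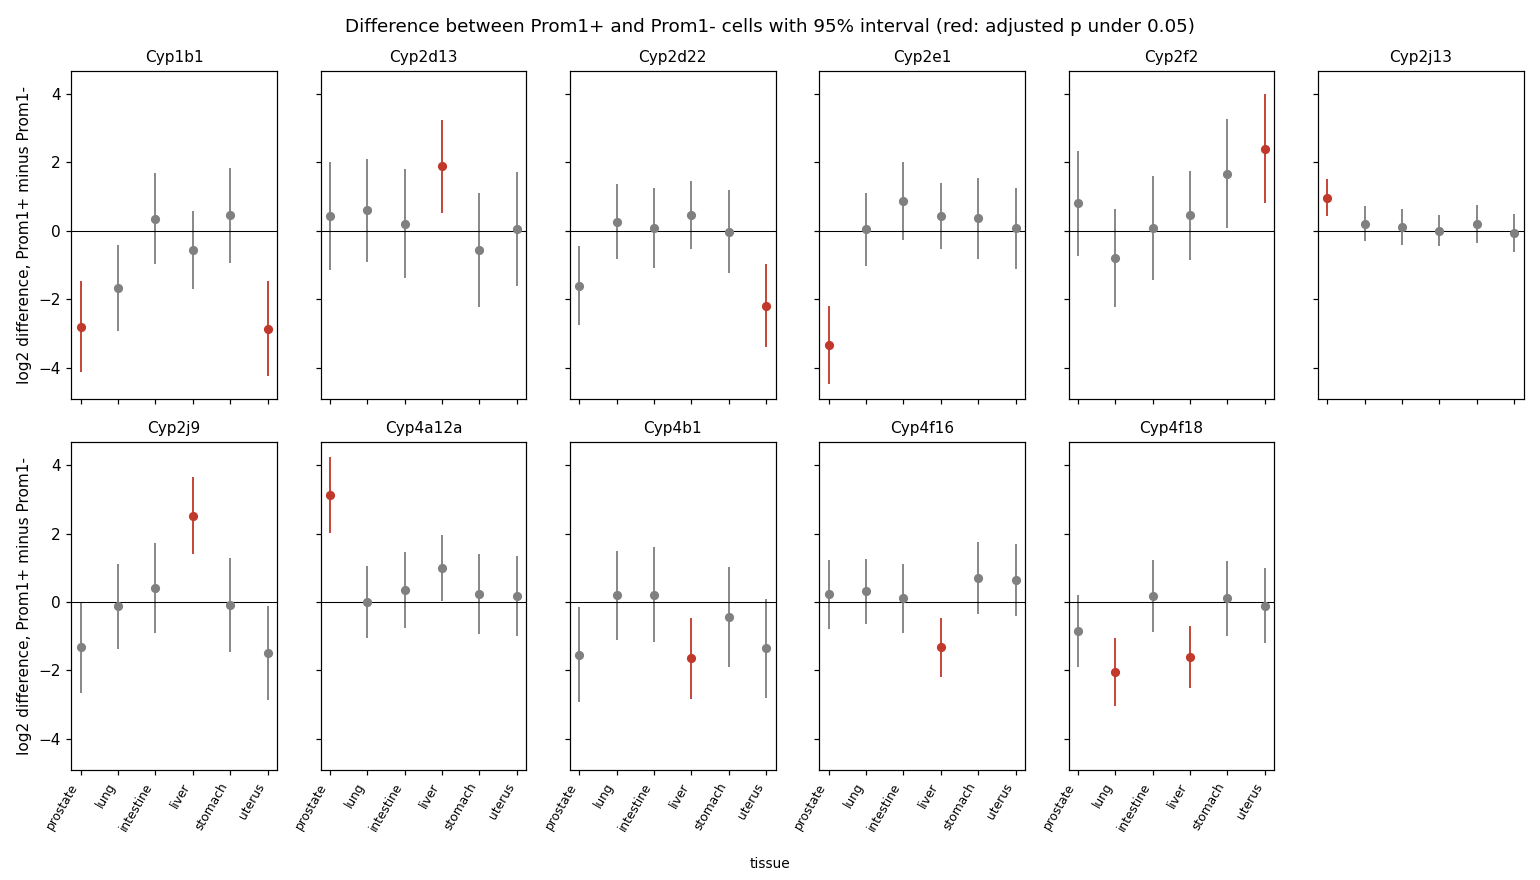
Log2 difference between Prom1-positive and Prom1-negative cells (vertical axis) in 6 tissues for the 11 members called in at least 1 tissue; points are limma estimates over the 51 sorted samples and bars 95% intervals. Red marks adjusted p under 0.05: Cyp4a12a is up by 3.13 and Cyp2e1 down (-3.34) in prostate, while Cyp1b1 is down in prostate and uterus.

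Tumours and sorted normal cells of the same organ differed in more members. Tumours were compared with the mean of both sorted groups, and 46 members could be tested. In liver 27 members were called, 14 higher and 13 lower in hepatocellular carcinoma, where 47.2% of all genes were called (29.2% higher and 18% lower). In gastric adenocarcinoma 13 members were called, where 58.1% of all genes were, and 11 in prostatic adenocarcinoma, where 36.7% were. The counts were 10 in uterine adenocarcinoma, where 28.8% of all genes were called, and 9 in bronchial papillary adenoma, where 43.1% were. The members' share was above that of all genes in liver and below it in the other 4 organs. The same 46 members were tested in every organ, although most of them lay below the array median in those 4. These shares therefore depend on which genes the filter let in. Without carcinomas 1 and 8 the liver count was 26, with Cyp2e1 lost. Without adenoma 1 the lung count was 8, of which 7 were shared. Cyp1b1 (1.36, limma, adjusted p = 0.0504) and Cyp2b10 were then lost and Cyp2e1 was gained (-1.72, 0.026). Without gastric adenocarcinoma 11 the 13 members called were the same. With the arrays of 1 organ alone, 12 of 19 members tested were called in prostate (56.2% of all genes), 11 of 18 in lung (54.7%), 11 of 17 in stomach (48.4%) and 6 of 16 in uterus (42.5%). In these fits fewer members passed the filter and the order turned round. The members' share was above that of all genes in prostate, lung and stomach and below it in uterus and, as given next, in liver. The order thus depends on the filter and the fit. For 33 members the tumour difference varied between organs, where 77.9% of all genes did.

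The hepatocellular carcinomas differed widely among themselves, more than the other samples that shape the shared estimate of spread. The fit of the 24 liver arrays alone called 15 of 44 members tested, 7 higher and 8 lower. It called 48.3% of all genes in either direction, and no share by direction is given. All 15 were among the 27. Without carcinomas 1 and 8 the same fit again called 15, of which 12 were shared. Cyp2f2 (-2.45, limma, adjusted p = 0.0555), Cyp2c55 (1.55, 0.051) and Cyp3a16 (1.07, 0.118) were then lost. Cyp2c38 (1.95, 0.042), Cyp2j6 (0.75, 0.0482) and Cyp2e1 (-1.29, 0.0382) were gained. Except where stated, what follows on liver is limited to the 15 called with all 24 liver arrays, with both adjusted p-values.

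Of the 8 members that fell, 3 belonged to family 4. Cyp4a12a had 2.44 to 11.07 with a median of 6.16 in hepatocellular carcinomas, against 9.08, 11.51, 11.37 and 11.12 in Prom1-positive and 7.07 to 10.91 (median 10.73) in Prom1-negative liver cells. The tumours thus ran from background to the normal level, and the mean fell by 3.91 (SE 0.70, limma, adjusted p = 2.33e-06, alone 0.0029). Cyp4b1 had 5.53 to 8.17 with a median of 6.72 in the carcinomas, against 11.87, 8.57, 7.55 and 9.46 in Prom1-positive and 10.60 to 11.64 in Prom1-negative cells. Every carcinoma lay below all Prom1-negative samples, and only Prom1-positive sample 4 overlapped them (difference -3.41, SE 0.40, limma, adjusted p = 9.33e-12, alone 8.17e-07). Cyp4f14, a leukotriene omega-hydroxylase, fell by 2.59 (SE 0.44, limma, adjusted p = 6.09e-07, alone 0.0117). Its range was 2.91 to 9.46 in the carcinomas, against 7.92, 10.86, 9.66 and 9.61 in Prom1-positive and 5.38 to 9.62 in Prom1-negative cells.

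The others that fell were of family 2. Cyp2d13, the transcribed pseudogene, had 2.55 to 9.33 with a median of 4.87 in the carcinomas, against 6.61, 11.19, 10.54 and 10.68 in Prom1-positive and 4.42 to 9.43 (median 8.19) in Prom1-negative cells. It fell by 3.89 (SE 0.44, limma, adjusted p = 2.62e-12, alone 0.000461), although the ranges overlapped. Cyp2f2 had 2.91 to 12.19 with a median of 11.24, against 10.31, 13.14, 12.23 and 12.55 in Prom1-positive and 9.10 to 12.66 in Prom1-negative cells. Most carcinomas kept a Cyp2f2 signal in the normal range and 6 were below it, which gave a mean fall by 2.95 (SE 0.77, limma, adjusted p = 0.000932, alone 0.0201). Cyp2c23, an arachidonate epoxygenase, fell by 2.09 (adjusted p = 0.000116, alone 0.0124), and Cyp2c29, a CAR-inducible epoxygenase of central hepatocytes, by 1.42 (adjusted p = 0.000696, alone 0.0124), both by limma. Cyp2j9 fell by 1.48 (limma, adjusted p = 1.35e-05, alone 0.0114), but against Prom1-negative cells alone its difference was -0.22 (adjusted p = 0.65), so its fall rests on the Prom1-positive cells.

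The 7 members that rose included 4 of those listed as female-biased in mouse liver, Cyp2a5, Cyp3a41a, Cyp3a16 and Cyp2c39. Cyp2a5, the coumarin hydroxylase, had 8.60 to 13.10 with a median of 11.94 in the carcinomas, against 6.57, 7.22, 10.68 and 11.33 in Prom1-positive and 5.73 to 11.10 (median 9.61) in Prom1-negative cells. It rose by 2.5 (SE 0.69, limma, adjusted p = 0.00157, alone 0.00635), but by 1.47 (adjusted p = 0.132) without the 6 arrays of low upper quartile. Cyp3a41a had 3.91 to 12.06 with a median of 6.51, against 4.09, 4.46, 4.39 and 5.75 in Prom1-positive and 2.84 to 5.54 in Prom1-negative cells. It rose by 2.86 (SE 0.52, limma, adjusted p = 2.46e-06, alone 0.00487), led by tumours 4 and 9 at 12.06 and 11.63. Cyp3a16 had 2.30 to 7.73 with a median of 3.10 in the carcinomas, against 2.36 to 3.33 in Prom1-positive and 2.20 to 2.60 in Prom1-negative cells. Tumours 1, 6, 7 and 8 had 7.73, 7.35, 6.90 and 7.39 and tumour 3 had 4.74, while the other 8 stayed at background (difference 1.67, limma, adjusted p = 2.27e-05, alone 0.0428). Without tumours 1 and 8, which carried the alveolar type 2 list, the Cyp3a16 difference was 1.07 (0.00112, alone 0.118). Cyp2c39 (2.19, adjusted p = 6.81e-05, alone 0.0457) and Cyp2c55 (1.46, adjusted p = 0.00019, alone 0.0466) rose by limma with overlapping ranges.

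Cyp1b1 rose as well, with 3.75 to 9.88 and a median of 6.03 in the carcinomas, against 4.22, 3.21, 2.82 and 4.16 in Prom1-positive and 2.97 to 5.72 in Prom1-negative cells (difference 2.43, SE 0.55, limma, adjusted p = 0.000132, alone 0.00541). Cyp4f16 rose by 0.85 (limma, adjusted p = 0.00128, alone 0.00406), but by only 0.19 against Prom1-negative cells alone (adjusted p = 0.609). In the same comparison 5 of 10 fibroblast genes and 4 of 6 bile duct genes rose and 9 of 10 endothelial, 8 of 10 macrophage and 9 of 9 T and NK cell genes fell, while 0 of 16 hepatocyte genes were called. The part of these cells in the member differences was not tested.

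Several members with a high liver signal were not called. Cyp3a11 differed by -1.16 (limma, adjusted p = 0.0914), Cyp1a2 by -1.02 (0.062), Cyp2d26 by 0.84 (0.0687), Cyp2d10 by -0.40 (0.309) and Cyp2c70 by -0.07 (0.886). Another 12 were called with all arrays but not with liver arrays alone, among them Cyp2e1 (-1.74, adjusted p = 0.0359, alone 0.0797, and -1.29 without carcinomas 1 and 8, 0.0974, alone 0.0382), Cyp1a1 (-1.60, 0.00294, alone 0.0689), Cyp2d9 (-1.02, 0.00155, alone 0.0918), Cyp2b9 (1.51, 0.000156, alone 0.0665) and Cyp3a44 (1.23, 0.000147, alone 0.0578).

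**Figure D3:**
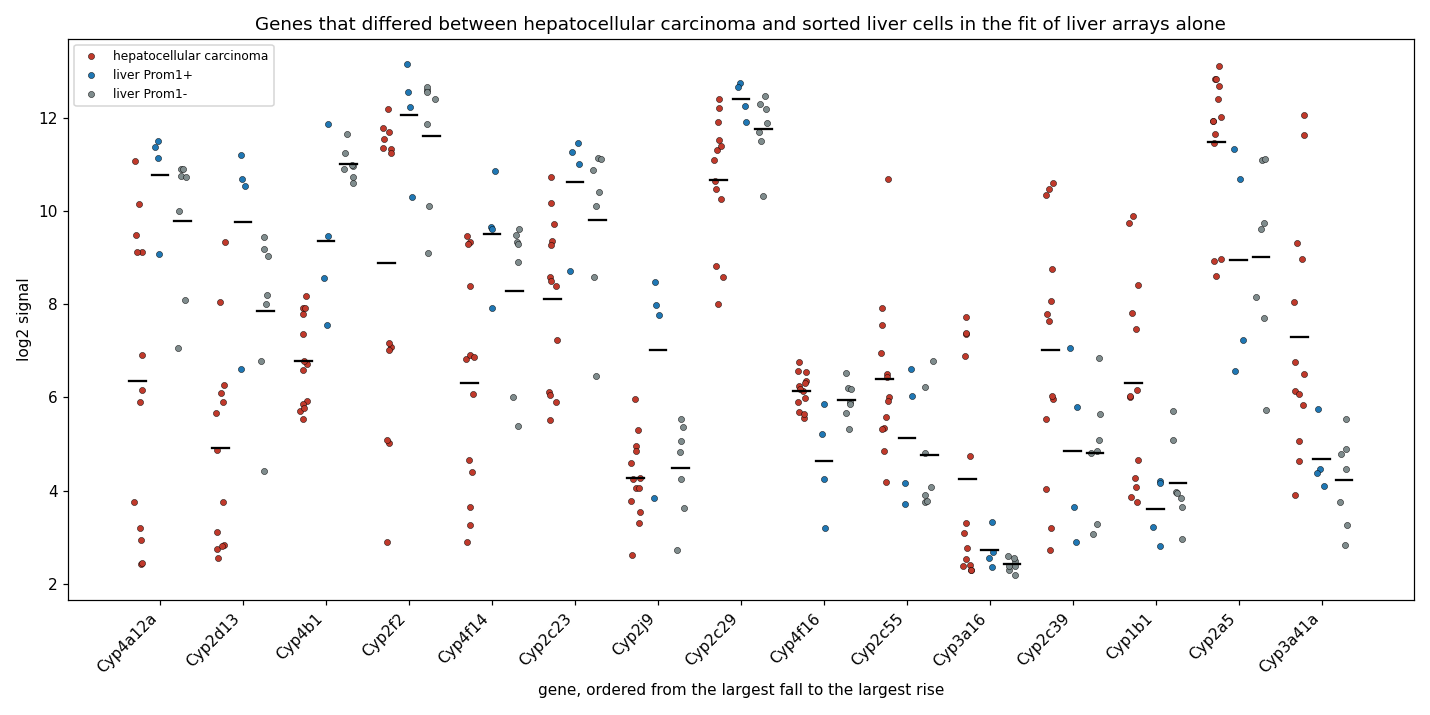
Log2 signal (vertical axis) of the 15 members called with liver arrays alone, ordered from the largest fall to the largest rise, in 13 hepatocellular carcinomas (red), 4 liver Prom1-positive (blue) and 7 liver Prom1-negative samples (grey); bars are group means. For Cyp4a12a the carcinomas spread from 2.44 to 11.07, while for Cyp4b1 they lie between 5.53 and 8.17, below all grey points.

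Of the 6 Cyp3a genes, all on chromosome 5, 5 lie close together and Cyp3a13 lies apart. Promoters of 4 of the 5 are shown because Cyp3a41a, Cyp3a16 and Cyp3a44 had higher means in the carcinomas while Cyp3a11, of the same cluster, did not. Capitals mark TATAAA and the sequence CAAAGTCCA, a form of the site bound by the hepatocyte factor Hnf4a. Each runs from 250 bases before to 50 after the start of the gene, from RefSeq on build GRCm38.p6, all on the minus strand: Cyp3a11 at chr5:145879805-145880104, Cyp3a16 at chr5:145469674-145469973, Cyp3a41a at chr5:145720087-145720386 and Cyp3a44 at chr5:145805825-145806124.
Cyp3a11: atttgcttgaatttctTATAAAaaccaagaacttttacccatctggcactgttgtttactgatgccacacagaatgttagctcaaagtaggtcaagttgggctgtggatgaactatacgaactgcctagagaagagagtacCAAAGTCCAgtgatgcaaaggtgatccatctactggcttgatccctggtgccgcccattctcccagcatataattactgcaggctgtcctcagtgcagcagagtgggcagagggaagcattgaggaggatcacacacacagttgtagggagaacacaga
Cyp3a16: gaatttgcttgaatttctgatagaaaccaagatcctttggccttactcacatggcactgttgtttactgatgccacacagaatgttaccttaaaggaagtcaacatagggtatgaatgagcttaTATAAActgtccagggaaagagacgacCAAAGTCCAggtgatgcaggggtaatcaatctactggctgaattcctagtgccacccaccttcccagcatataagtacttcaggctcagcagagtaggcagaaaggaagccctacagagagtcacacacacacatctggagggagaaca
Cyp3a41a: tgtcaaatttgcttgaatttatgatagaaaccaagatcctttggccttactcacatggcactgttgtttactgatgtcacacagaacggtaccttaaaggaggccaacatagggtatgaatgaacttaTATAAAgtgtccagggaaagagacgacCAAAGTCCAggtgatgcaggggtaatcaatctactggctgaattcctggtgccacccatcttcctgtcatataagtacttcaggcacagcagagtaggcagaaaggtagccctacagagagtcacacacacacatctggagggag
Cyp3a44: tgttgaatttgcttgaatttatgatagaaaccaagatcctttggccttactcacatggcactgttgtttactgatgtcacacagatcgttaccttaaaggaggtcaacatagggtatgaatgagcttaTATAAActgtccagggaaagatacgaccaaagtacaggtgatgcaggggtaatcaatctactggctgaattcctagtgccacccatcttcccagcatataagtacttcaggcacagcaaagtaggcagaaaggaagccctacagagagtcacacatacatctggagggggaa
The longest identical run was 80 bases between Cyp3a41a and Cyp3a44, 67 between Cyp3a16 and Cyp3a41a and 36 between Cyp3a11 and Cyp3a16. CAAAGTCCA was present in Cyp3a11, Cyp3a16 and Cyp3a41a, and at the matching place Cyp3a44 carried C7A, counted from 1 at the 5′ end of the motif. Searched on both strands, CAAAGTCCA was found in 8.70% of the 46 promoters of the 40 members that had an entry, and in 0.475% of 32851 mouse promoters. The member promoters with it were only 4, those of Cyp2c70, Cyp3a11, Cyp3a16 and Cyp3a41a. The Cyp3a promoters among them are related copies, so the share does not describe the family at large. TATAAA was found in 39.1% of the members' promoters and in 13.6% of all. GTTAAT, from the Hnf1 site, was found in 6.52% and 7.10%, and GCGTG, the core bound by Ahr and Arnt, in 23.9% and 32.4%. TTGCGCAA, a C/EBP site, was in 0 member promoters and in 0.183% of all. A match is only a run of letters in this window. Near-identical members may also share hybridisation on the array, which these files cannot separate.

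Within the 13 carcinomas the members did not move as a block. The members with the widest spread were Cyp2f2 (SD 3.25), Cyp4a12a (SD 3.18), Cyp4a10 (SD 2.79), Cyp2c39, Cyp2e1 and Cyp1a2. Cyp2d26 had an SD of 0.38 and the plasma protein gene Alb kept a signal of 13.19 to 14.13 in every carcinoma. Tumours 6, 7, 8 and 12 were the 4 with Axin2, a Wnt target of central hepatocytes, at 7.46, 7.23, 7.49 and 7.84, against 3.58 to 4.93 in the other 9. These 4 also had the highest Rhbg, an ammonium carrier of central hepatocytes, and the lowest Hal, the histidase of portal hepatocytes. In them Cyp2f2 was 2.91, 5.02, 5.10 and 7.02. Among the other 9, tumours 1 and 3 had a Cyp2f2 signal of 7.09 and 7.18 and the remaining 7 had 11.24 to 12.19. Cyp2a5 was 8.60, 8.92 and 8.97 in tumours 6, 7 and 8 and 12.40 in tumour 12, against 11.45 to 13.10 in the others. Cyp2e1 was 11.90, 11.79, 12.77 and 12.46 in the 4, against 3.02 to 12.55 in the others. Tumour 1, whose alveolar type 2 list was 9.07, had Cyp1a2 at 2.95 and Cyp2e1 at 3.02, the lowest of the 13, and the part of that foreign signal was not tested. Tumour 4 had the highest Cyp2b9, at 9.80, and was the only one with Cyp2b13 far above background, at 10.18.

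**Figure D4:**
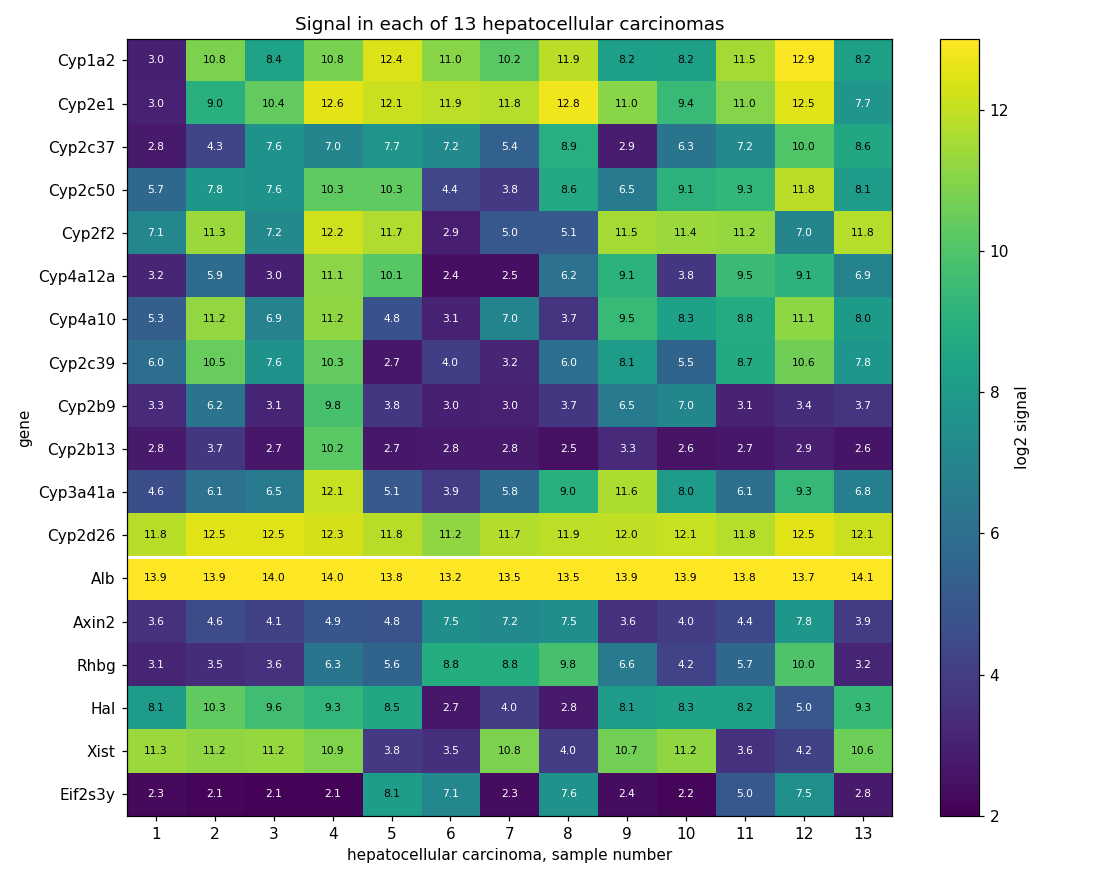
Log2 signal (colour and printed value) of 12 members and 6 other transcripts (rows; the white line separates them) in each of the 13 hepatocellular carcinomas (columns). Tumours 6, 7, 8 and 12 share high Axin2 and Rhbg and low Hal, tumour 1 lacks Cyp1a2 and Cyp2e1, and Cyp2b13 is far above background in tumour 4, at 10.18.

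Sex of the animals touches this comparison, since several liver P450 genes differ between male and female mice. All 11 sorted liver samples had a low signal of Xist, the RNA of the inactive X chromosome, between 2.81 and 5.22. Xist was over 8 in 8 of the 13 carcinomas, and the Y-linked Eif2s3y was over 4 in the other 5. Among the carcinomas Cyp1a2 was 2.95 to 10.81 in the 8 with high Xist, against 11.04 to 12.95 in the 5 with low Xist, without overlap. Cyp2b9, a female-biased gene, was 3.01 to 9.80 in the 8 and 2.96 to 3.78 in the 5. Cyp2d9 was 8.58 to 11.08 in the 8 and 10.74 to 11.53 in the 5, and Cyp4a12a 2.45 to 11.07 in the 8 and 2.44 to 10.15 in the 5. With only the 5 low-Xist carcinomas, the all-array fit gave -0.09 for Cyp2e1 (limma, adjusted p = 0.958), -0.26 for Cyp1a1 (0.796), -0.29 for Cyp2d9 (0.555) and 0.32 for Cyp2b9 (0.287), none of them called. Liver arrays alone then called 8 of 42 members tested, 7 of them among the 15, where 29.4% of all genes were called. In the all-array fit, where 29.2% of all genes were higher and 18% lower, 6 of 7 members listed with a female-biased liver level rose in the carcinomas and 0 fell, with a median of 1.67. With liver arrays alone 4 of them were called. Of those listed as male-biased, 0 of 5 rose and 4 fell, with a median of -1.02. With liver arrays alone 2 of these 4 were called, Cyp4a12a and Cyp2f2. Their medians in the 8 high-Xist and 5 low-Xist carcinomas were 4.83 and 9.11 for Cyp4a12a and 11.34 and 7.02 for Cyp2f2. For the 4 female-biased members called alone these medians were 11.93 and 12.40 (Cyp2a5), 6.63 and 6.08 (Cyp3a41a), 3.20 and 2.40 (Cyp3a16) and 7.71 and 6.02 (Cyp2c39). In the same all-array fit 2 of 8 members listed as central-lobule genes rose and 4 fell, 2 of 7 listed as epoxygenases rose and 2 fell, and 1 of 10 listed as omega-hydroxylases rose and 3 fell. The median over all genes was 0.07, and the part of the animals' sex in these counts was not tested. Xist was uneven in lung and stomach too. In lung it was over 8 in 6 of 14 adenomas, 0 of 3 Prom1-positive and 1 of 7 Prom1-negative samples. In stomach it was over 8 in 5 of 11 tumours and in every sorted sample. Of these, 2 Prom1-positive and 2 Prom1-negative samples also had Eif2s3y over 4. The part of sex in the lung and stomach comparisons was not tested.

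In prostatic adenocarcinoma the largest fall was that of Cyp4a12a. Its signal was 2.07 to 4.18 with a median of 2.30 in the tumours, against 9.09, 9.09 and 9.84 in Prom1-positive and 4.37, 6.64, 6.51, 7.18 and 6.37 in Prom1-negative cells. No tumour reached a normal sample, and the mean fell by 5.21 (SE 0.81, limma, adjusted p = 1.06e-07, alone 4.01e-09). Cyp4b1 had 3.58 to 5.91 with a median of 4.07 in the tumours, against 5.90, 5.66 and 5.93 in Prom1-positive and 5.52 to 8.27 in Prom1-negative cells. It fell by 2.28 (SE 0.46, limma, adjusted p = 3.23e-05, alone 5.69e-05), and the highest tumours reached the lowest normal samples. Cyp2f2 (-2.24, adjusted p = 0.0403, alone 0.0492), Cyp2b10 (-1.85; 0.0281, alone 0.0137) and Cyp2d22 (-1.26; 0.00737, alone 0.00713) were lower by limma with overlapping ranges. Without Prom1-positive sample 2 the adjusted p of Cyp2b10 was 0.0974, and the Cyp2f2 call was lost without any 1 of 6 normal samples. The Cyp2f2 range was 3.18 to 11.19 in the tumours, and against Prom1-positive cells alone Cyp2d22 differed by only -0.45 (adjusted p = 0.592).

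Of the 4 members that rose in the prostate tumours, 3 were of the Cyp4f subfamily. Cyp4f39 had 3.0 to 5.16 with a median of 4.16, against 2.46, 3.16 and 2.74 in Prom1-positive and 2.63 to 2.90 in Prom1-negative cells (difference 1.31, SE 0.30, limma, adjusted p = 0.000253, alone 8.67e-05). Cyp4f16 rose by 1.15 (SE 0.26, adjusted p = 0.000253, alone 9.87e-05) and Cyp4f13 by 0.66 (SE 0.25, adjusted p = 0.0319, alone 0.00156). The Cyp4f13 call of the all-array fit was lost without Prom1-positive sample 1 or 2 (0.0868 and 0.0958). A small rise of Cyp2b19, near background, was called with all arrays (0.61) and not with prostate arrays alone (0.0876). Cyp2c29, also low, was called with prostate arrays alone (0.61, 0.001) and not with all arrays (0.257). In the same tumours 7 of 9 prostate epithelial genes fell and 1 rose, and their mean signal was 6.26 to 10.31 in tumours, 12.27 to 12.44 in Prom1-positive and 11.67 to 11.81 in Prom1-negative cells. Its part in the fall of Cyp4a12a was not tested.

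In bronchial papillary adenoma Cyp1a1, the inducible Ahr target, had 2.61 to 5.69 with a median of 3.02, against 8.22, 4.10 and 6.63 in Prom1-positive and 3.41 to 8.25 (median 7.30) in Prom1-negative lung cells. Most adenomas were at background, and the mean fell by 3.05 (SE 0.49, limma, adjusted p = 1.03e-07, alone 6.18e-05). Cyp2d22 fell by 2.86 (SE 0.35, limma, adjusted p = 3.24e-11, alone 2.04e-05), with 3.95 to 7.64 in the adenomas, against 9.59, 7.08 and 7.72 in Prom1-positive and 4.96 to 9.03 in Prom1-negative cells. Cyp4b1 fell by 1.89 (SE 0.42, limma, adjusted p = 8.59e-05, alone 0.00601), with 6.36 to 11.60 in the adenomas, against 12.23, 9.60 and 10.93 in Prom1-positive and 7.65 to 11.85 in Prom1-negative cells. The Cyp4b1 ranges overlapped, and the lung Prom1-negative sample 7, at 7.65, was far below the other 6. Cyp2j9 fell by 1.33 (limma, adjusted p = 0.00015, alone 7.87e-05). Cyp4f18 fell by 1.12 (limma, adjusted p = 0.0134, alone 0.0147), but differed by -0.10 (adjusted p = 0.929) against Prom1-positive cells alone, and its adjusted p was 0.059 without Prom1-positive sample 2.

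The promoter of Cyp1a1 is shown because it is the textbook case of induction through Ahr and because the gene fell in lung. It lies at chr9:57697363-57697662 on the plus strand of GRCm38.p6, from RefSeq, and capitals mark GCGTG and, downstream of it, TATAAA.
Cyp1a1: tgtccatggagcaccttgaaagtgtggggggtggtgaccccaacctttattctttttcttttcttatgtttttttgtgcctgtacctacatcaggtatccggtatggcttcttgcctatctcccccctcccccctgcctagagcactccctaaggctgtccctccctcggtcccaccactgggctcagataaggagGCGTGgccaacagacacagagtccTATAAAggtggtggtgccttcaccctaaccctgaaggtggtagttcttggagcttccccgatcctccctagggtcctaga
Cyp1a1 was highest in intestine among normal tissues, with 9.18, 6.15 and 6.88 in Prom1-positive and 6.02, 7.69, 8.88, 8.92 and 7.16 in Prom1-negative cells.

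Members that rose in bronchial adenoma began with Cyp3a13, which had 3.13 to 7.17 with a median of 5.14, against 2.88, 2.69 and 2.71 in Prom1-positive and 2.44 to 3.12 in Prom1-negative cells. Every adenoma was above every normal lung sample (difference 2.28, SE 0.57, limma, adjusted p = 0.000566, alone 7.27e-06). Cyp4a12a rose by 2.03 (SE 0.73, limma, adjusted p = 0.0184, alone 0.00463), with 2.28 to 7.5 in the adenomas, against 2.36 to 2.88 over all normal lung samples. Cyp2b10 rose by 1.69 (SE 0.63, limma, adjusted p = 0.022, alone 0.0365), with 6.07 to 11.88 in the adenomas, against 7.40, 5.72 and 6.84 in Prom1-positive and 3.73 to 8.48 in Prom1-negative cells. Cyp1b1 was called with all arrays (1.34, limma, adjusted p = 0.0491) and not with lung arrays alone (0.0736) or without any 1 of 5 sorted lung samples. Without Prom1-positive sample 2 or Prom1-negative sample 7 the adjusted p of Cyp2b10 was 0.088 and 0.0567, and without adenoma 1 its difference was 1.43 (0.0527, alone 0.0518). Cyp2f2, the club cell enzyme, had 8.83 to 12.38 in the adenomas, against 8.29, 9.11 and 9.47 in Prom1-positive and 7.54 to 10.88 in Prom1-negative cells. Its difference of 1.17 was called only with lung arrays alone (limma, adjusted p = 0.252, alone 0.0196). Of the lung epithelial lists, 5 of 6 alveolar type 2 genes rose, with a mean signal of 10.94 to 12.34 in adenomas, 8.03 to 9.24 in Prom1-positive and 7.93 to 10.33 in Prom1-negative cells. In addition 4 of 8 club cell genes and 8 of 10 endothelial genes fell, and the part of these cells was not tested.

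In gastric adenocarcinoma the 2 largest differences were those of Cyp2c23 and Cyp1b1. Cyp2c23 had 2.62 to 6.74 with a median of 3.02 in the tumours, against 9.80, 9.31 and 9.43 in Prom1-positive and 7.68, 3.56, 7.96 and 8.57 in Prom1-negative stomach cells. The value of 3.56 is that of the array with a low upper quartile, and all other normal samples were above every tumour (difference -4.66, SE 0.54, limma, adjusted p = 2.43e-12, alone 1.31e-05). Cyp2f2 fell by 2.83 (SE 0.90, limma, adjusted p = 0.00499, alone 6.03e-05), with 2.35 to 3.26 in the tumours and 2.86 to 7.30 over the normal samples. Cyp2d26 (-2.24, limma, adjusted p = 1.3e-05, alone 0.00134) fell too. Cyp2c55 had 3.43 to 3.85 in the tumours, against 5.20, 5.27 and 4.32 in Prom1-positive and 4.91, 4.65, 6.01 and 5.48 in Prom1-negative cells, without overlap (difference -1.47, adjusted p = 0.000836, alone 7.25e-06). Cyp4f39 fell by 1.41 (limma, adjusted p = 3.89e-05, alone 8.18e-06), again without overlap, at low signals on both sides.

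Cyp1b1 had 7.15 to 9.98 with a median of 8.46 in gastric adenocarcinomas, against 3.79, 3.57 and 5.02 in Prom1-positive and 3.16, 4.06, 3.75 and 3.69 in Prom1-negative cells. The groups were separated by more than 2, and the rise was 4.52 (SE 0.64, limma, adjusted p = 2.09e-09, alone 4.93e-09). Smaller rises were those of Cyp4b1 (1.36, adjusted p = 0.00871, alone 0.006), Cyp4f18 (1.29; 0.00759, alone 0.0131) and Cyp2d22 (0.97; 0.0286, alone 0.00344), all by limma. The Cyp2d22 call of the all-array fit was lost without Prom1-positive or Prom1-negative sample 3 (0.0673 and 0.0518). Beside them, 8 of 10 fibroblast genes, 8 of 10 macrophage genes and 7 of 10 endothelial genes rose, and 9 of 9 stomach gland and surface genes fell. The gland list averaged 3.27 to 8.18 in tumours, 11.15 to 12.55 in Prom1-positive and 11.66 to 12.78 in Prom1-negative cells. The fibroblast list averaged 7.09 to 8.21 in tumours, 3.90 to 4.89 in Prom1-positive and 3.59 to 5.06 in Prom1-negative cells. The cell types that carried Cyp1b1 or lost Cyp2c23 cannot be told apart in these bulk samples.

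In uterine adenocarcinoma Cyp4v3, an omega-hydroxylase mutated in human crystalline retinal dystrophy as CYP4V2, had 5.68 to 8.29 with a median of 6.33, against 7.57, 8.21, 8.40 and 7.83 in Prom1-positive and 9.01, 8.86 and 8.12 in Prom1-negative cells. Only the highest tumours reached the normal range, and it fell by 1.64 (SE 0.36, limma, adjusted p = 0.000148, alone 0.00161). Cyp4f18 (-1.29, limma, adjusted p = 0.0214, alone 0.0264), Cyp2d22 (-1.29; 0.0112, alone 0.0318) and Cyp2j9 (-1.05; 0.0164, alone 0.00123) fell as well. Against Prom1-positive cells alone, Cyp2d22 differed by -0.19 (adjusted p = 0.85) and Cyp2j9 by -0.31 (0.681). Cyp1b1 had 4.14 to 9.63 with a median of 7.55 in the tumours, against 3.18, 4.28, 5.17 and 4.34 in Prom1-positive and 7.17, 7.73 and 6.39 in Prom1-negative cells. Its rise of 1.78 (limma, adjusted p = 0.033, alone 0.0439) was 0.35 (adjusted p = 0.85) against the Prom1-negative cells alone, and lost its call without Prom1-positive sample 1 or Prom1-negative sample 1 or 3 (0.0556 to 0.0867). Likewise Cyp4f18 lost its call without Prom1-positive sample 1 or Prom1-negative sample 3 (0.0656 and 0.0669) and Cyp2j9 without Prom1-negative sample 1 or 2 (0.0565 and 0.0523).

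Cyp4a12a had 2.62 to 7.62 with a median of 5.24 in uterine tumours, against 2.24 to 2.45 in Prom1-positive and 2.08 to 2.38 in Prom1-negative cells, without overlap. It rose by 2.48 (SE 0.85, limma, adjusted p = 0.0195, alone 0.0119), and by 2.12 (adjusted p = 0.0567) without tumour 6. Uterine tumour 6 carried liver transcripts, with Alb at 13.35 and Ttr at 11.92, so it is treated separately. Its Cyp3a11 was 11.47, its Cyp2c29 9.51, its Cyp2e1 10.18 and its Cyp1a2 7.87. Cyp3a11, Cyp2c29 and Cyp2e1 were called with it (1.85, 1.29 and 2.58, limma, adjusted p = 0.0357, 0.0181 and 0.0162) and lost without it (0.94, 0.62 and 1.95; 0.27, 0.188 and 0.0765). Cyp2e1 was raised in other uterine tumours as well, with 6.76, 8.52 and 5.83 in tumours 2, 3 and 5, where Alb was 3.11, 3.31 and 6.15. Cyp4f39 rose by 1.25 (limma, adjusted p = 0.00115, alone 0.0774), in tumours where 5 of 9 keratinocyte genes rose and that list averaged 4.26 to 7.14, against 3.30 to 3.90 in Prom1-positive and 3.44 to 3.58 in Prom1-negative cells.

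**Figure D5:**
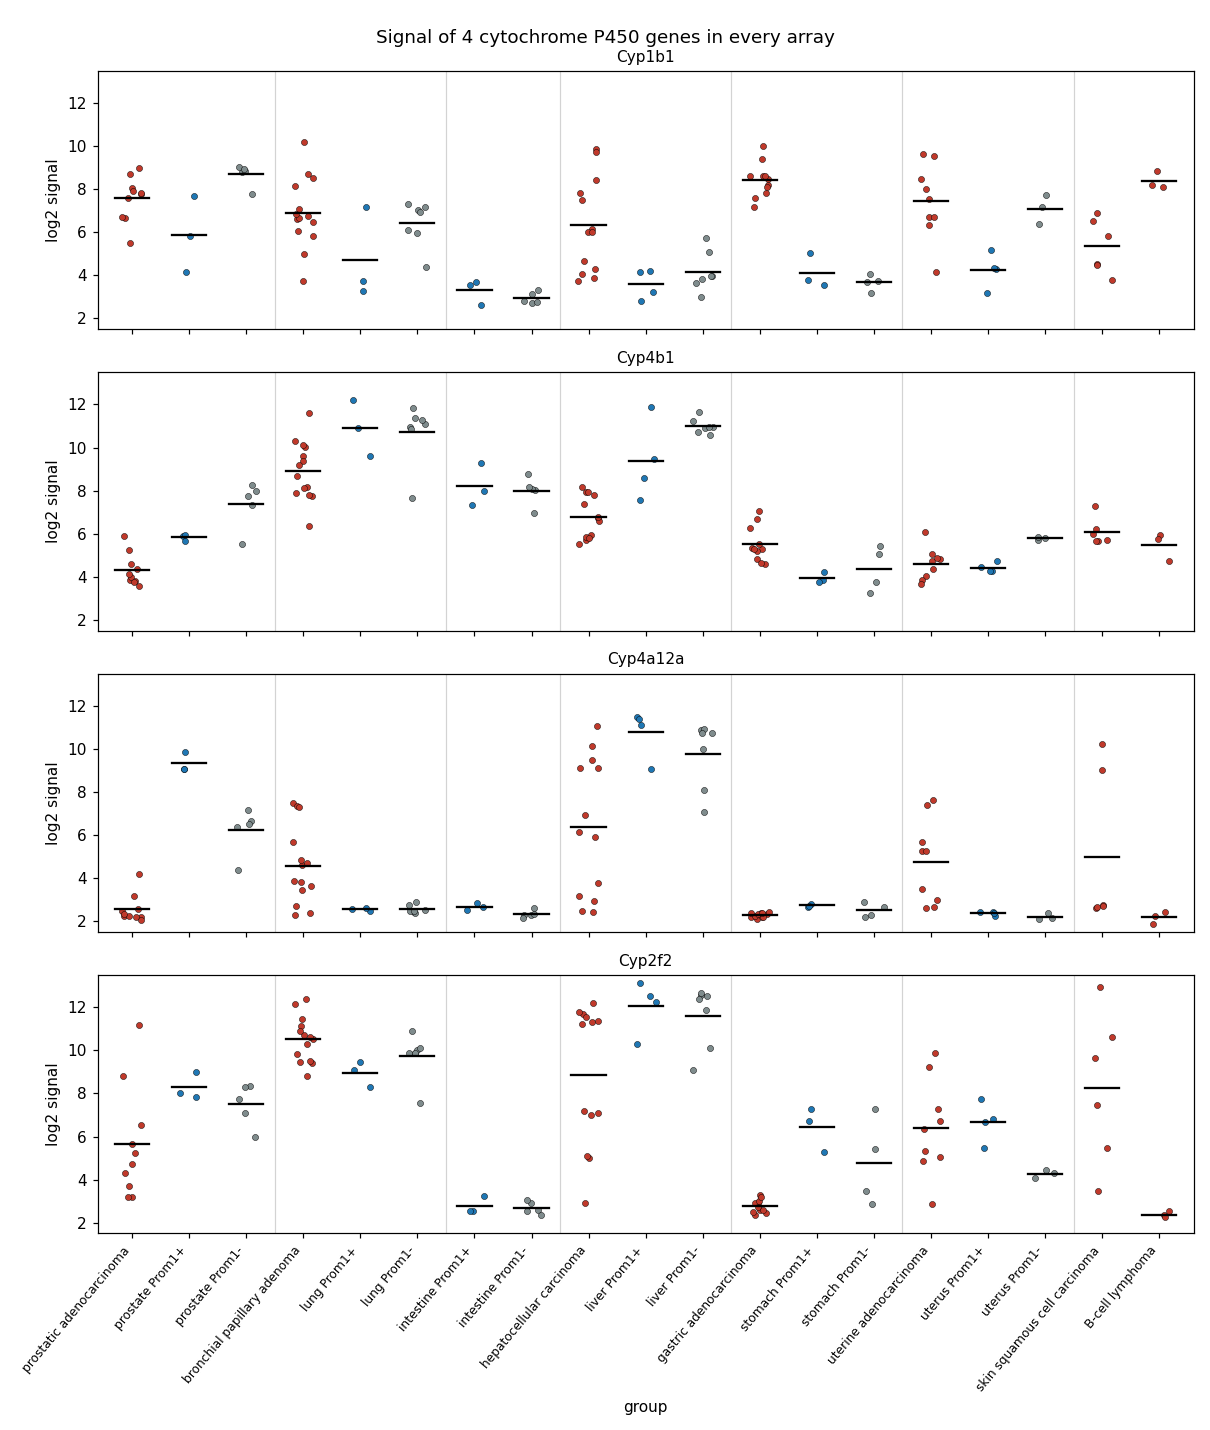
Log2 signal (vertical axes) of Cyp1b1, Cyp4b1, Cyp4a12a and Cyp2f2 in all 117 arrays by group (horizontal axis): tumours in red, Prom1-positive cells in blue, Prom1-negative cells in grey, bars at the group means. Cyp1b1 in gastric adenocarcinoma (7.15 to 9.98) lies above all normal stomach samples, and Cyp4a12a in prostatic adenocarcinoma (2.07 to 4.18) below all normal prostate samples.

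Averaged over the 5 organs with equal weight, 16 members were called, 5 higher and 11 lower in tumours, where 65.8% of all genes were called (39% higher and 26.8% lower). Cyp1b1 was the largest rise (2.07, SE 0.27, limma, adjusted p = 1.78e-10), followed by Cyp3a13 (0.93, 0.0022), Cyp3a41a (0.60, 0.0345), Cyp2c39 (0.56, 0.0325) and Cyp4f16 (0.40, 0.00141). Outside liver, Cyp3a41a and Cyp2c39 were above the array median in 0 tumours of prostate, lung and stomach and in 1 uterine tumour each. That uterine value was 10.99 for Cyp3a41a and 7.20 for Cyp2c39, against medians of 2.86 and 2.64 over the uterine tumours. Their means over the organs thus rest on liver and on single uterine values. The falls were led by Cyp4b1 (-1.34, SE 0.20, 6.94e-09), Cyp2c23 (-1.28, 1.18e-06), Cyp2f2 (-1.18, 0.00527), Cyp2j9 (-1.12, 1.11e-10), Cyp1a1 (-1.05, 5.22e-05), Cyp2d13 (-1.03, 2.48e-05) and Cyp2d22 (-1.0, 2.05e-07). Several of these means join opposite differences. Cyp4a12a (-0.99, 0.0103) fell in prostate and liver and rose in lung and uterus, and Cyp4b1 rose in stomach.

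The partners of the P450 enzymes were read from lists of other genes. In hepatocellular carcinoma against sorted liver cells, 29.2% of all genes rose and 18% fell. Of 6 tested genes for electron partners and haem supply, such as P450 reductase and cytochrome b5, 1 rose and 0 fell. Of 7 xenobiotic receptors and their partners 2 rose and 1 fell, and of 9 hepatocyte transcription factors 4 rose and 0 fell. Of 14 conjugation enzymes 6 rose and 3 fell, and of 14 other oxidising and hydrolysing enzymes 4 rose and 2 fell. The medians of the partner list and of the factor list were 0.22 and 0.68. Against the other 6 tumour types, where hepatocellular carcinoma was higher in 25% of all genes and lower in 41.3%, it was higher in 5 of 6 partners, 5 of 7 receptors, 8 of 9 transcription factors, 14 of 14 conjugation enzymes and 14 of 14 other enzymes, and lower in 0 of each. P450 genes of sterol, bile acid and retinoid metabolism, outside families 1 to 4, were higher in 8 of 13 tested and lower in 0.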

How the data were processed

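RNA of 117 mouse samples was hybridised to single-colour Affymetrix arrays. The deposited values are log2 probe set signals, made by the authors with RMA in Partek 6.6, per the submitters' processing notes; the settings and any batch correction are not given in the sources used here. The values (1.63 to 14.2, array medians 3.63 to 4.01) were used unchanged. Arrays give no read depth, so precision depends on how many there are in a group.

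Of 45141 probe sets, 28898 had a single gene symbol in the platform annotation, 551 had several and 15692 had none; the single-symbol sets gave 17097 genes, each by its probe set of highest mean. The 50 members had 58 probe sets, and the 6 with several were Cyp1b1, Cyp2b10, Cyp2d22, Cyp2j5, Cyp2j6 and Cyp4v3. A second probe set of Cyp1b1 followed the one used only weakly over the arrays (r = 0.186). Probe sets of Cyp2a5, Cyp2b10, Cyp2c23, Cyp4a10 and Cyp4v3 carry the suffix for shared probes. Genes above the array median in at least 3 arrays of a fit were tested: 14081 for the sorts, 14663 for tumours against normal cells and 13456 for tumour types.

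limma 3.58.1 in R 4.3.3 (lmFit, eBayes, group means, two-sided, Benjamini-Hochberg over all genes tested, threshold 0.05) was fitted over the 51 sorted samples, all 117 samples or the 66 tumours. The fits were tested on simulated data with 200 genes changed by 2. They recovered 98.5% to 100% of the changed genes. Of the simulated calls 5.21% to 8.33% were false, above the threshold of 0.05. Figures were drawn with matplotlib 3.10.9 under Python 3.11.15. Alternatives covered the probe set rule, the filter, normalisation, the samples in the fit, the normal cells used, a replicate block and each sample left out. Title numbers did not pair the samples: 7 of 19 same-numbered positive and negative samples correlated above 0.1 after group means were removed, against 10 of 13 with neighbouring sample codes. In stomach 2 negative samples carry the number 2 and were kept as separate samples.

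The members and lists were chosen with earlier results of these data known. Values are given for members called in a sort, for the 5 largest called rises and falls per tumour comparison, for up to 3 members with an excess of at least 1 per tissue or tumour type, for the 6 with the widest spread in hepatocellular carcinoma, and for the listed subsets. A list's level is the mean log2 signal of its genes in an array. Promoters are RefSeq sequences on GRCm38.p6; protein sequences were not used here.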

Additional observations from a re-analysis of the deposited data

Results flagged for a closer look

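Within groups of 4 to 10 samples, 124 combinations of member and group were examined. In 22 of them the range was at least 1 and a sample stood far from the others by Dixon's criterion. Chance alone marks about 1 in 20 groups when no limit is set on the range. Prom1-negative prostate sample 1 was such a sample for 5 members: Cyp1b1 at 7.79, Cyp2b10 at 3.02, Cyp2d22 at 5.02, Cyp2j9 at 3.19 and Cyp4a12a at 4.37, each the lowest of its group. Prom1-positive liver sample 2 was the lowest of its group for another 5: Cyp2c23 at 8.70, Cyp2d13 at 6.61, Cyp2d9 at 10.30, Cyp2j9 at 3.85 and Cyp4a12a at 9.08. Prom1-negative lung sample 7 had the lowest Cyp1a1 (3.41) and Cyp4b1 (7.65) and the highest Cyp4f18 (8.92) of its group. In Prom1-negative liver, sample 3 had the highest Cyp2b9 (5.84) and Cyp2g1 (4.54) and sample 2 the lowest Cyp2e1 (10.51). Prom1-positive liver sample 5 had the highest Cyp2c37, at 10.26. Prostatic adenocarcinoma 10 had the highest Cyp2b10 (7.53) and Cyp2j9 (4.16) and adenocarcinoma 4 the highest Cyp4a12a (4.18). Uterine adenocarcinoma 6 had the highest Cyp2c29 (9.51) and Cyp3a11 (11.47).

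The Prom1 difference varied between the 6 tissues for 6 members by limma's interaction test, with adjusted p of 0.000717 for Cyp2e1, 0.00382 for Cyp2j9, 0.00967 for Cyp1b1, 0.0143 for Cyp4a12a, 0.0342 for Cyp2d22 and 0.045 for Cyp4f18. The tumour difference varied between the 5 organs, with calls in both directions in the all-array fit, for 10 members. For Cyp2c29 and Cyp2e1 the only rise was in uterus and was lost without uterine adenocarcinoma 6. The Cyp2b10 rise in lung was lost without the adenoma that carried the club cell list. The Cyp3a44 rise and the Cyp2e1 fall in liver were not called in the fit of all liver arrays alone. The adjusted p of that interaction in limma was 5.16e-11 for Cyp4a12a, 5.83e-10 for Cyp4b1, 2.32e-08 for Cyp4f39, 2.77e-08 for Cyp2d22, 1.69e-05 for Cyp2c55, 0.000214 for Cyp2c29, 0.000218 for Cyp4f18, 0.000277 for Cyp3a44, 0.00119 for Cyp2e1 and 0.00888 for Cyp2b10.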

How the results depend on the processing

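No member that was called reversed its direction in any alternative, but members not called could: in the liver sort Cyp2a5 and Cyp2c38 differed by -0.07 and -0.09, and by 1.99 and 1.53 without the arrays of low upper quartile. Over all alternatives, 421 counts of members called stayed within 1.5 times the reported count and 50 moved beyond it, and single called members kept direction and call in 7486 cases and lost the call in 383. In the prostate sort (4 called), all 117 samples in the fit gave 2 and blocks of neighbouring sample codes 7. In the lung sort (1), quantile normalisation, the fit without the 6 arrays of low upper quartile, all 117 samples and lung arrays alone each gave 0, and code blocks 2. In the liver sort (5), no filter gave 3, liver arrays alone 3, code blocks 16 and the fit without the low-quartile arrays 17. The last 2 both leave out Prom1-positive liver sample 2, since code blocks hold only samples with a neighbouring code. The fit without the low-quartile arrays also leaves out Prom1-positive liver sample 3, so only samples 4 and 5 of that group remained. In the stomach sort (0), no filter and quantile normalisation each gave 1. In the uterus sort (3), all 117 samples gave 1 and uterus arrays alone 6. For the mean of 6 tissues (3) no filter gave 5, and for the differences between tissues (6) all 117 samples gave 3. The replicate block by title number gave 2 in prostate, 0 in lung, 10 in liver with 1 gene shared, 1 for the mean and 3 for the differences between tissues. These numbers are not known to mark pairs.

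For tumours, Prom1-positive cells as the only normal group gave 5 in prostate (11), 8 in stomach (13) and 3 in uterus (10), and Prom1-negative cells 7 in stomach and 4 in uterus. Organ arrays alone gave 15 in liver (27), 8 there without the 8 high-Xist carcinomas, and 6 in uterus; leaving out uterine adenocarcinoma 6 gave 6. Fits on 1 organ, without low-quartile arrays, without high-Xist carcinomas, without uterine tumour 6 and without the other 5 arrays with a foreign marker list were chosen after seeing the data. With each sample left out in turn, the sort counts were 2 to 5 in prostate, 0 to 2 in lung, 0 in intestine, 1 to 17 in liver (17 without Prom1-positive sample 2 and 1 without sample 4), 0 to 2 in stomach, 1 to 3 in uterus, 3 to 5 for the mean and 4 to 10 for the differences between tissues. The tumour counts were 8 to 11 in prostate, 8 to 9 in lung, 24 to 30 in liver, 10 to 13 in stomach and 7 to 10 in uterus. Signals near the array median limit what can be seen for 11 members.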

Other observations

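Single tumours carried members that were near background in the rest of their type. Squamous cell carcinomas of the skin 3 and 5 had Cyp4a12a at 10.24 and 9.03, against 2.60 to 2.77 in the other 4, and Cyp2a5 at 10.42 and 7.84, against 2.58 to 4.44. Cyp2f2 in the 6 skin tumours ran from 3.48 to 12.95 and was highest in the same samples. The keratinocyte list averaged 7.36 and 10.86 in tumours 3 and 5, against at least 8.82 in the other 4, and Krt5 was 12.08 to 12.88 and Alb 2.81 to 3.29 over all 6. Skin tumour 2 had Cyp2b19, a keratinocyte member, at 6.06.

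Bronchial papillary adenoma 1 had Cyp2a5 at 11.40 and Cyp2b10 at 11.88, and the next highest Cyp2a5 was 7.23, in adenoma 7. The club cell list averaged 11.55 in adenoma 1, against 5.96 to 8.39 in the other 13, and Sftpc, the surfactant gene, was 13.68 to 14.09 over all 14. The part of the club cell signal in these values was not tested. Gastric adenocarcinoma 11 had Cyp3a11 at 9.45, with the next highest at 4.84. Its enterocyte list averaged 8.38, against 3.01 to 4.80 in the other 10, and its Alb was 3.36, and the part of the enterocyte signal was not tested. Cyp1b1 was 8.08, 8.18 and 8.82 in the B-cell lymphomas and 3.80 to 6.91 in the skin tumours, for which no normal cells were measured.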
